A study of Homo sapiens with 2 samples.

Results

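The genes described here are the human oxidative stress genes around the transcription factor NRF2 and the enzyme heme oxygenase 1. They are HMOX1, FTH1, NFE2L2, KEAP1, BACH1, GCLC, GCLM, TXNRD1, SRXN1 and NQO1, which makes 10 of the 20263 genes in the deposited table and 82 of its 95139 transcripts. The set was named by gene symbol and was picked for the strong rise of HMOX1 in these same libraries. Every value below from this comparison is therefore a description, and no test was made.

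The cells were of H9, a widely used line of human embryonic stem cells. In 1 group they received small interfering RNA against the splicing factor gene HNRNPA1 (labelled siHNRNPA1). In the other they received a control small interfering RNA (labelled sicontrol). The treatment lasted 48 h in both groups, no other agent or allele is named, and messenger RNA libraries were sequenced. Each group had 1 library, so no spread between replicates could be estimated and no p-value is given.

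NRF2, the product of NFE2L2, pairs with small MAF proteins and switches on genes that carry an antioxidant response element in their regulatory DNA. KEAP1 holds NRF2 in the cytoplasm and hands it to a CUL3 ubiquitin ligase for destruction, and oxidants or electrophiles that react with KEAP1 let NRF2 escape. BACH1 binds the same elements as a repressor and is removed by heme, so that HMOX1, which breaks heme down to biliverdin, carbon monoxide and iron, answers to both arms.

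The core of the antioxidant response element, TGAC, any 3 bases and then GC on either strand, was searched in the RefSeq promoter windows (GRCh38.p14), which run from 250 bases before to 50 bases after a start. The core was in 4687 of all 35116 windows (13.3%). Of 13 windows matched by symbol to 8 of the 10 genes, 4 held it, and they belong to GCLM, KEAP1 and TXNRD1. Windows of BACH1, GCLC, NFE2L2, NQO1 and SRXN1 did not hold these letters, and no window of HMOX1 or FTH1 was matched. A match is a description of letters and not a bound site. DNA outside these windows was not searched, so a window without the letters does not mean a gene without the element. The stretches below are written 5′ to 3′ on the strand of the gene, with the core in capitals.

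GCLM, chr1:93909446-93909474, minus strand: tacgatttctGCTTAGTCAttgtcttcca
KEAP1, chr19:10502807-10502835, minus strand: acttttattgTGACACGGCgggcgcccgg
KEAP1, chr19:10502784-10502812, minus strand: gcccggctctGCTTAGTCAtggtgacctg
TXNRD1, chr12:104286920-104286948, plus strand: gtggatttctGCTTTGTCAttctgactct

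The GCLM core began 34 bases before the start, and the KEAP1 cores began 54 and 31 bases before it. The TXNRD1 core began 102 bases before a RefSeq start that lies in the first exon of TXNRD1-205, the form that held most TXNRD1 RNA in these cells. The core lies in that exon too, downstream of the GENCODE start of TXNRD1-205. The other TXNRD1 window, at a start far upstream, held 2 cores, but the transcripts that begin there were listed at 0 in both libraries.

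Several of the 10 genes differed between the libraries in which first exon or internal exon their transcripts carried. These junctions show the alternatives, from GENCODE release 29 sequences (GRCh38). Each is 30 bases long and is written 5′ to 3′ on the gene's strand, and the coordinates are the exon ends that are joined. Capitals mark the alternative first exon, or the start of the internal exon that is kept in one form and skipped in the other.

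NFE2L2-201, chr2:177234271-177264532, minus strand: CTCCCGTCCCAGCAGgacatggatttgatt
NFE2L2-202, chr2:177234271-177263403, minus strand: TCTGTGCTGTCAAGGgacatggatttgatt
KEAP1-201, chr19:10500080-10503241, minus strand: TCCCCTACAGCCAAGgtccctgagtgccag
KEAP1-202, chr19:10500080-10502697, minus strand: CGCGGCCATGGCGGGgtccctgagtgccag
KEAP1-209, chr19:10500080-10503093, minus strand: GACCTGGGGGCTGAGgtccctgagtgccag
BACH1-201, chr21:29298953-29321221, plus strand: CGCGCCTCAGCTCTGgttgatgataattag
BACH1-202, chr21:29299598-29321221, plus strand: GCCTCGCACAATATGgttgatgataattag
TXNRD1-205, chr12:104287109-104288931, plus strand: CATTCTCAAATTCTTaggacggtcgggccc
TXNRD1-214, chr12:104287346-104288931, plus strand: TCAGCATGTCATGTGaggacggtcgggccc
NQO1-201, exon kept, chr16:69713129-69714964, minus strand: aaaggacccttccggAGTAAGAAGGCAGTG
NQO1-203, exon skipped, chr16:69711281-69714964, minus strand: aaaggacccttccggagtggcattctgcat
GCLM-201, exon kept, chr1:93904588-93909038, minus strand: acgcacagcgaggagCTTCATGATTGTATC
GCLM-204, exon skipped, chr1:93901669-93909038, minus strand: acgcacagcgaggaggagtttccagatgtc

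The libraries held 28147828 estimated counts with siHNRNPA1 and 26680342 with sicontrol. Below, "with siHNRNPA1" and "with sicontrol" stand for the 1 library of each group. HNRNPA1 itself stood at 179.9 FPKM against 663, or 27.1% of the control. FPKM is a level per kilobase of transcript, scaled to the number of sequenced fragments and summed here over the transcripts of a gene, and a fold is log2((siHNRNPA1 + 1)/(sicontrol + 1)) of it. All 10 markers of H9 cells were at 1 FPKM or more in both libraries, with a sum of 2487 FPKM against 2116. POU5F1 made up most of the sum (1355 against 864), and 6 of the 10 markers were lower with siHNRNPA1, among them SOX2 (58.3 against 126) and TERF1 (97.7 against 168). Of 8 fibroblast markers 4 reached 1 FPKM in both libraries, with sums of 218 and 266 FPKM. Most of it was THY1 (181 and 233), a surface gene that embryonic stem cells also express. COL1A1 had 25.0 against 14.5 FPKM, COL1A2 8.38 against 13.3, PDGFRB 2.65 against 3.61 and TWIST2 0.948 against 2.48. COL3A1, LUM and DCN were at 0. Of 7 macrophage and blood markers 1 reached 1 FPKM in both libraries, with sums of 7.33 and 2.62 FPKM. It was HBA1, at 5.48 against 1.74 FPKM (104 and 32 counts). CD68 had 1.75 against 0.817 FPKM. PTPRC, CD14 and HBG1 were well under 1 FPKM in both, and CD163 and HBB were at 0. The part of other cells in the values below was not tested. In bulk RNA a change in the number of cells of one kind and a change in RNA per cell cannot be told apart. Intervals are 95% and exact, and they cover counting error only.

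HMOX1 was much higher with siHNRNPA1, and the genes usually named with it as NRF2 targets were split in direction. Of the 10 genes, all of which passed the minimum mean of 1 FPKM, 3 were at least 2-fold higher (HMOX1, KEAP1 and SRXN1). The corresponding share over all 11921 genes kept was 12.4%. BACH1 alone was at least 2-fold lower, against 21.9% of all genes, and the other 6 lay within 2-fold. The median log2 fold was 0.23 for the 10 genes and -0.13 for all genes. Because the set was picked on this contrast, nothing is read from these counts.

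**Figure D1:**
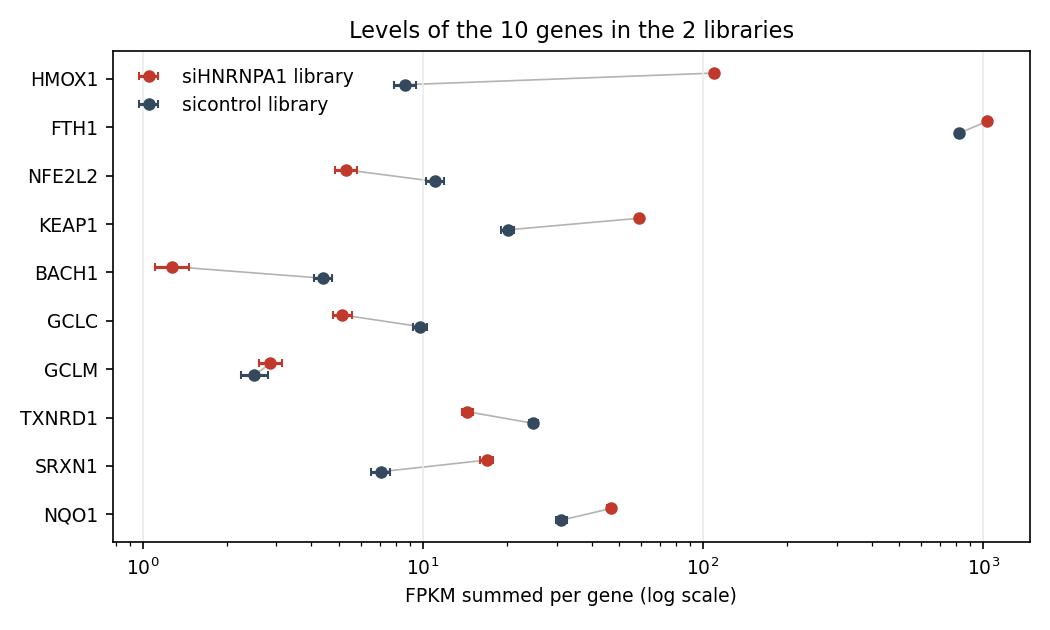
FPKM summed per gene on a log axis for the 10 genes, with 1 point per library and bars for the 95% counting interval (hidden by the point where it is narrow). HMOX1 has the widest gap, 109 against 8.66 FPKM. KEAP1 and SRXN1 are also to the right with siHNRNPA1, and NFE2L2, BACH1, GCLC and TXNRD1 to the left.

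HMOX1, the inducible heme oxygenase (ENSG00000100292, chr22:35380361-35394214, plus strand), had 109 FPKM with siHNRNPA1 (107 to 112) and 8.66 FPKM with sicontrol (7.91 to 9.46). These levels rest on 6619 and 490 counts. The log2 fold was 3.51, and the ratio of the FPKM was 12.6. As a share of all counts the gene was 12.8-fold higher (11.7 to 14.1). In the control library HMOX1 lay near the middle, above 48.9% of the genes kept, whereas with siHNRNPA1 it was above 94.6%.

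Only 6 of all genes kept had a higher fold than HMOX1. The whole of its signal was assigned to HMOX1-201, a transcript of 5 exons with a coding sequence of 864 bases. HMOX1-202, which starts further upstream, had no count in either library. Here and below, the limit given for a count of 0 is 3 counts of the gene's total, here 0.0453% with siHNRNPA1. No other annotated gene overlaps HMOX1. The 4 other genes kept within 250 kb of it had log2 folds from -1.85 for HMGXB4 to 1.31 for MCM5, so none of these neighbours had a fold near that of HMOX1. TOM1 (1.13) and MCM5, the kept genes on either side of HMOX1, were at least 2-fold higher, while HMGXB4 and RASD2 (-0.41) were lower.

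FTH1, the ferritin heavy chain that stores the iron released by heme breakdown (ENSG00000167996, chr11:61959718-61967660, minus strand), was the most abundant of the 10 genes. It had 1029 FPKM with siHNRNPA1 (1017 to 1041) and 823 with sicontrol (812 to 834). The log2 fold was 0.32, a difference larger than counting error but far from 2-fold. GENCODE lists 25 genes named as FTH1 pseudogenes, many of them near copies of FTH1, so its level and its transcript shares are uncertain. BEST1 overlaps it on the other strand, and whether the authors counted by strand is not stated in the labels or headers.

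FTH1 messenger RNA is known for the iron-responsive element near its 5′ end, a hairpin to which iron regulatory proteins bind to block translation when iron is scarce. The element was searched as a bulged C, 5 paired bases and the loop letters CAGTGN, and it was found in 9 of the 10 FTH1 transcripts in the table. Of 83064 coding transcripts in GENCODE, 616 (0.742%) held such letters. In FTH1 it reads as follows (GRCh38), with the bulged C and the loop in capitals.

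FTH1-201, chr11:61967574-61967603, minus strand: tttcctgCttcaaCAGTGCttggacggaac

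The transcripts that hold the element summed to 328 FPKM with siHNRNPA1 and 421 with sicontrol. FTH1-207, the 1 transcript that lacks these letters, had 701 FPKM with siHNRNPA1 and 401 with sicontrol. Its share of the gene was thus 68.1% against 48.8%. FTH1-204 stood at 6.16% against 25.0%, and FTH1-201, which carries the full coding sequence, was near 19% in both (18.8% and 19.8%). The slightly higher level of FTH1 with siHNRNPA1 was therefore assigned to FTH1-207. How the reads of such overlapping transcripts were divided is an estimate of the authors' program.

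NFE2L2, the gene of NRF2 (ENSG00000116044, chr2:177227595-177392697, minus strand), was lower with siHNRNPA1. It had 5.33 FPKM (4.86 to 5.83, 474 counts) against 11.0 FPKM with sicontrol (10.3 to 11.8, 785 counts). The log2 fold was -0.93, just within 2-fold on that scale, although the FPKM itself was 2.07-fold higher with sicontrol. Noncoding genes and a pseudogene overlap it on its own strand and AGPS on the other, and their part was not tested.

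The form of the NFE2L2 transcript also differed. NFE2L2-201, whose first exon shown above codes for the N-terminus of NRF2, made up 81.6% of the gene's FPKM with siHNRNPA1 and 24.2% with sicontrol. NFE2L2-202, which joins another first exon to the same second exon, made up 11.4% and 52.7%. Its coding sequence begins in that second exon and is 1767 bases long, against 1815 bases in NFE2L2-201. NFE2L2-201 had 4.35 FPKM with siHNRNPA1 (413 counts) and 2.67 with sicontrol (238 counts). NFE2L2-202 had 0.605 FPKM (54 counts) and 5.83 (480 counts). The lower level of the gene was thus mostly that of NFE2L2-202, while NFE2L2-201 was higher.

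KEAP1, the sensor that retains NRF2 (ENSG00000079999, chr19:10486120-10503741, minus strand), was higher. It had 59.2 FPKM with siHNRNPA1 (57.4 to 61.0) and 20.1 with sicontrol (19.0 to 21.2), a log2 fold of 1.51. The full-length forms KEAP1-201 and KEAP1-202 kept their shares, at 31.3% against 30.7% and 31.2% against 32.7%. Both have a coding sequence of 1872 bases and differ in the first exon. KEAP1-201 had 18.6 FPKM with siHNRNPA1 and 6.17 with sicontrol, and KEAP1-202 had 18.5 and 6.57. A clone-named gene overlaps KEAP1 on the same strand.

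The shorter KEAP1 transcripts differed in opposite directions. KEAP1-203, annotated as a target of nonsense-mediated decay, made up 0.836% with siHNRNPA1 and 25.9% with sicontrol. KEAP1-209 made up 25.9% with siHNRNPA1, on 500 counts, and was listed at 0 with sicontrol. None of 1294 control counts allows a count share of up to 0.232%. A listed 0 can come from how reads were divided between overlapping transcripts, and KEAP1-203 and KEAP1-209 are short forms of 3 exons each.

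BACH1, the heme-regulated repressor (ENSG00000156273, chr21:29194071-29630751, plus strand), was lower. It had 1.27 FPKM with siHNRNPA1 (1.10 to 1.46, 200 counts) and 4.40 with sicontrol (4.08 to 4.73, 717 counts). The log2 fold was -1.25, and the FPKM was 3.46-fold higher with sicontrol. BACH1-201 held 79.6% of the FPKM with siHNRNPA1 and 49.5% with sicontrol. BACH1-203, a short form, held the other 20.4% with siHNRNPA1 on 8 counts and was listed at 0 with sicontrol. By counts BACH1-201 held 96.0% (192 of 200) against 53.7% (385 of 717). BACH1-202, with the other first exon and the same coding length of 2208 bases, held 0 of 200 counts (up to 1.50%) against 322 of 717. BACH1 was under the 5 FPKM set for comparing shares, and its shares rest on few counts. Noncoding genes within BACH1 lie on the same strand, and GRIK1 overlaps it on the other.

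The next genes are classic NRF2 targets. GCLC and GCLM encode the catalytic and the modifier subunit of glutamate-cysteine ligase, the first step of glutathione synthesis. GCLC (ENSG00000001084, chr6:53497341-53616970, minus strand) had 5.16 FPKM with siHNRNPA1 (4.77 to 5.57) and 9.77 with sicontrol (9.19 to 10.4), a log2 fold of -0.81. GCLC-201, the form of 16 exons, held 96.2% of it against 87.3%.

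GCLM (ENSG00000023909, chr1:93885205-93909456, minus strand) had 2.85 FPKM with siHNRNPA1 (2.59 to 3.13) and 2.50 with sicontrol (2.24 to 2.79). Its log2 fold was 0.14, and its share of all counts was 1.27-fold higher with siHNRNPA1 (1.10 to 1.47). For GCLC that ratio was 0.573 (0.518 to 0.633), so the subunits lay on opposite sides of the control. GCLM-201 kept an exon of 66 bases that GCLM-204 skips, and the kept form made up 87.8% of the FPKM with siHNRNPA1 and 65.6% with sicontrol. The counts were 406 of 441 and 248 of 329, and GCLM too was under 5 FPKM.

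TXNRD1, the cytosolic thioredoxin reductase (ENSG00000198431, chr12:104215779-104350305, plus strand), had 14.4 FPKM with siHNRNPA1 (13.7 to 15.1) and 24.8 with sicontrol (23.8 to 25.8). The log2 fold was -0.74. TXNRD1-205 was nearly level, at 12.9 against 14.8 FPKM, and its share was 89.6% against 59.7%. TXNRD1-214, which joins a first exon that ends further downstream to the same second exon, was listed at 0 of 1801 counts (up to 0.167%) against 317 of 2559. TXNRD1-213, a short form, made up 3.75% against 10.1%. The lower level of TXNRD1 thus came mostly from forms other than TXNRD1-205. EID3, which lies within TXNRD1 on the same strand, could share reads with it, and its part was not tested.

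SRXN1, the sulfiredoxin that repairs overoxidized peroxiredoxins (ENSG00000271303, chr20:646615-653370, minus strand), was higher. It had 16.9 FPKM with siHNRNPA1 (16.0 to 17.7, 1517 counts) and 7.06 with sicontrol (6.51 to 7.66, 593 counts), a log2 fold of 1.15. The table holds 1 SRXN1 transcript, so no share could be compared. A clone-named gene overlaps it on the same strand.

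NQO1, the quinone reductase widely used as a readout of NRF2 (ENSG00000181019, chr16:69706996-69726951, minus strand), was moderately higher. It had 47.0 FPKM with siHNRNPA1 (45.3 to 48.7) and 31.2 with sicontrol (29.8 to 32.6), a log2 fold of 0.57. NQO1-203 skips an exon of 102 bases and made up 25.6% against 45.8%. NQO1-201, which keeps the exon, made up 28.1% against 19.1%, and NQO1-206 made up 29.0% against 13.9%. NQO1-202 made up 10.3% against 2.94%, and NQO1-205 0 against 11.6%. By counts NQO1-205 was listed at 0 of 2974 (up to 0.101%) against 100 of 1973 (5.07%). Over all NQO1 transcripts the exon was kept in 67.4% of the FPKM with siHNRNPA1 and 47.5% with sicontrol. The count shares for it were 62.5% (60.8% to 64.3%) and 40.1% (38.0% to 42.3%).

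The order of the 10 genes by level differed between the libraries at several places. In the control library FTH1 was followed by NQO1, TXNRD1, KEAP1, NFE2L2, GCLC, HMOX1, SRXN1, BACH1 and GCLM. The counting intervals of NFE2L2 and GCLC overlapped there, and so did those of GCLC and HMOX1. In the siHNRNPA1 library FTH1 was followed by HMOX1, KEAP1, NQO1, SRXN1, TXNRD1, NFE2L2, GCLC, GCLM and BACH1. There the intervals of NFE2L2 and GCLC overlapped. HMOX1 stood in the seventh place with sicontrol and behind FTH1 with siHNRNPA1. SRXN1 also stood further up with siHNRNPA1 and TXNRD1 further down.

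**Figure D2:**
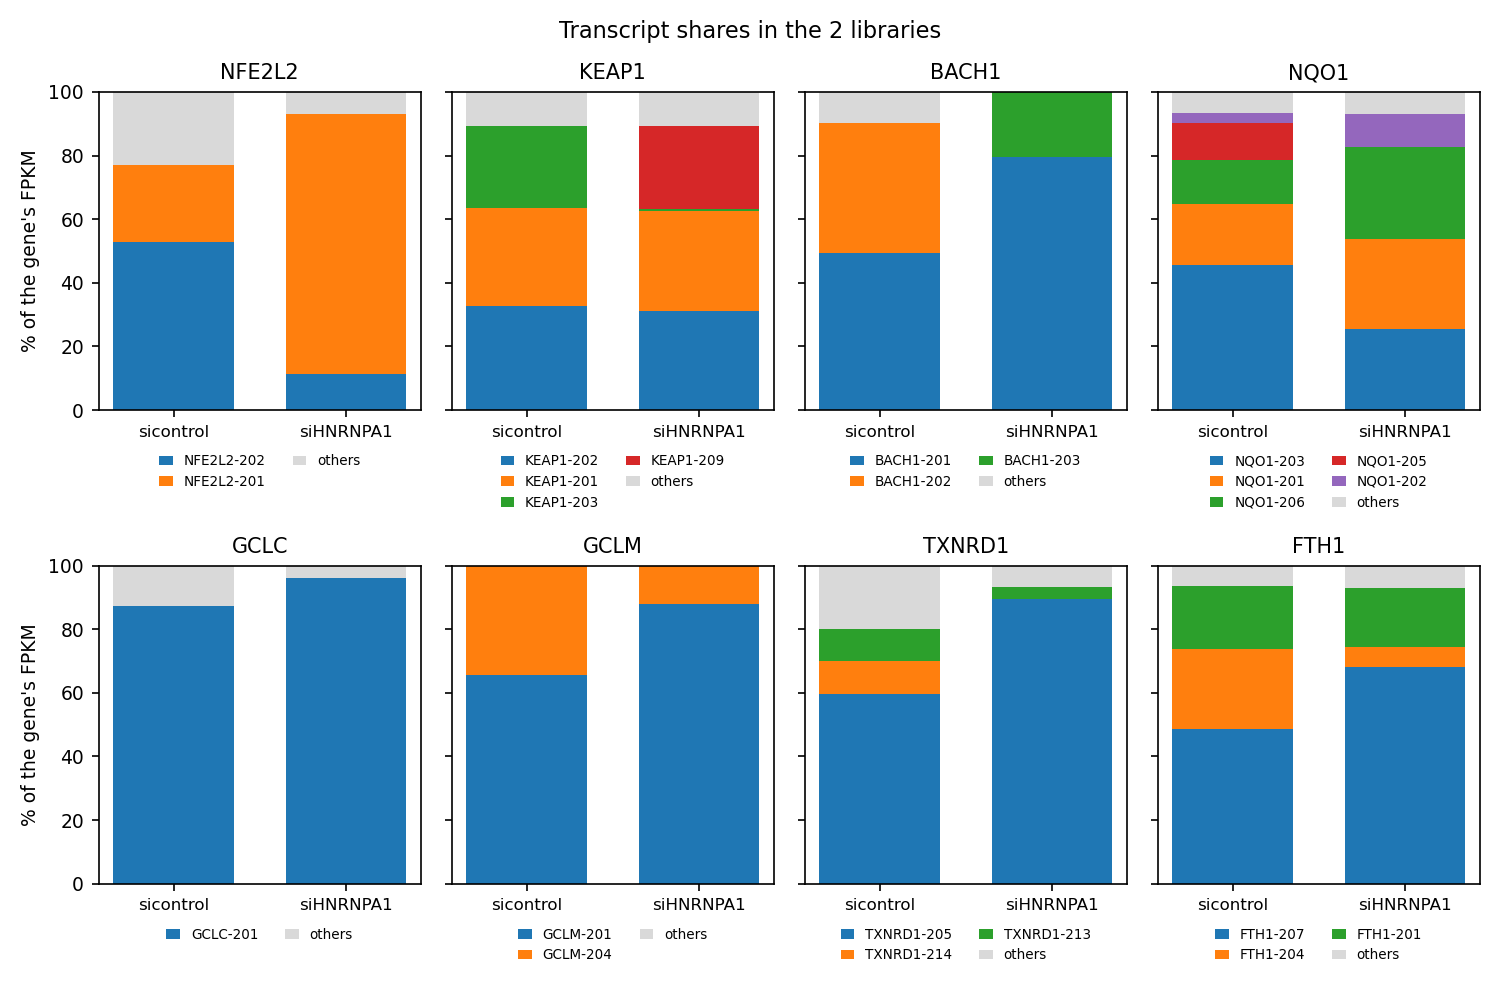
Stacked bars of each transcript's percentage of its gene's FPKM, for the 8 genes with more than 1 transcript in use, with sicontrol (left bar) and siHNRNPA1 (right bar). NFE2L2-201 is at 24.2% and 81.6%, TXNRD1-205 at 59.7% and 89.6%, and KEAP1-203 fills the place in the left bar that KEAP1-209 has in the right one. Gray holds all transcripts not named.

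Transcript shares differed widely between these libraries in the set and beyond it. Of the 7 genes with at least 2 transcripts and 5 FPKM in both libraries, NFE2L2, TXNRD1, KEAP1 and NQO1 had a transcript whose share differed by 20 points or more. The corresponding share over all 5715 such genes was 40.6%, and nothing is read from the count, since the set was picked on this contrast. The largest differences were 57.4 points in NFE2L2, 29.9 in TXNRD1, 25.9 in KEAP1 and 20.1 in NQO1. FTH1 reached 19.4 and GCLC 8.91 points, and HMOX1 did not differ. The median was 20.1 points for these 7 genes and 15.4 for all genes.

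Grouped by the end of the first exon, 3 of 7 genes (NFE2L2, KEAP1 and TXNRD1) differed by 20 points or more, against 24.3% of all genes. This grouping and the next were added after the shares had been seen. For NFE2L2 the first exon of NFE2L2-201 was at 81.6% against 28.3%, and that of NFE2L2-202 at 12.4% against 60.4%. As a share of counts the first exon of NFE2L2-201 was at 87.1% (83.8% to 90.0%) against 31.2% (28.0% to 34.6%). For TXNRD1 the first exon of TXNRD1-205 was at 99.2% against 75.5%, and at 99.1% against 75.4% of counts. For KEAP1 the first exon of KEAP1-201 was at 32.2% against 56.6%, and that of KEAP1-209 at 25.9% against 0. By counts KEAP1 was under 20 points, at 44.4% against 53.5% for the shared first exon and 12.1% against 0 for that of KEAP1-209. KEAP1-201 itself held 44.1% against 43.8% of counts, and KEAP1-203 held 0.314% against 9.66%. Of 27 internal exons that could be skipped in 6 of the genes, 1 differed by 20 points or more, against 11.7% of all such exons. It is an exon of FTH1 of 119 bases that only minor transcripts of that gene skip, kept in 73.9% against 100% of FPKM. These shares rest on transcripts that sum to 20.7 against 8.33 FPKM. By counts the exon was under 20 points, at 82.7% against 100%. A longer version of it, of 126 bases, was kept in 99.4% against 100% of FPKM. The NQO1 exon of 102 bases was past 20 points by counts, at 62.5% against 40.1%, but not by FPKM (67.4% against 47.5%).

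Folds in these libraries went with base composition, which touches every gene of the set. Spearman's rho between the fold and the GC content of the leading transcript was 0.58 over 11916 genes, and that between the fold and the transcript's length was -0.46. Genes are not independent replicates, so these values describe the libraries only. The genes of the set ranged from 37.3% GC in GCLM to 60.8% in KEAP1. The 3 genes past 2-fold upward had the highest GC contents of the set, at 58.1% in HMOX1, 60.8% in KEAP1 and 53.6% in SRXN1. BACH1, NFE2L2, GCLC and TXNRD1, which were lower, lay between 38.6% and 45.6%. NQO1 at 44.2% and GCLM at 37.3% had GC contents as low, with log2 folds of 0.57 and 0.14. In the fifth of genes by GC content that holds HMOX1, 19.2% were at least 2-fold higher and 6.92% at least 2-fold lower. Mitochondrial genes took 18.1% of TPM with siHNRNPA1 and 28.2% with sicontrol, and the part of this difference in the folds was not tested.

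**Figure D3:**
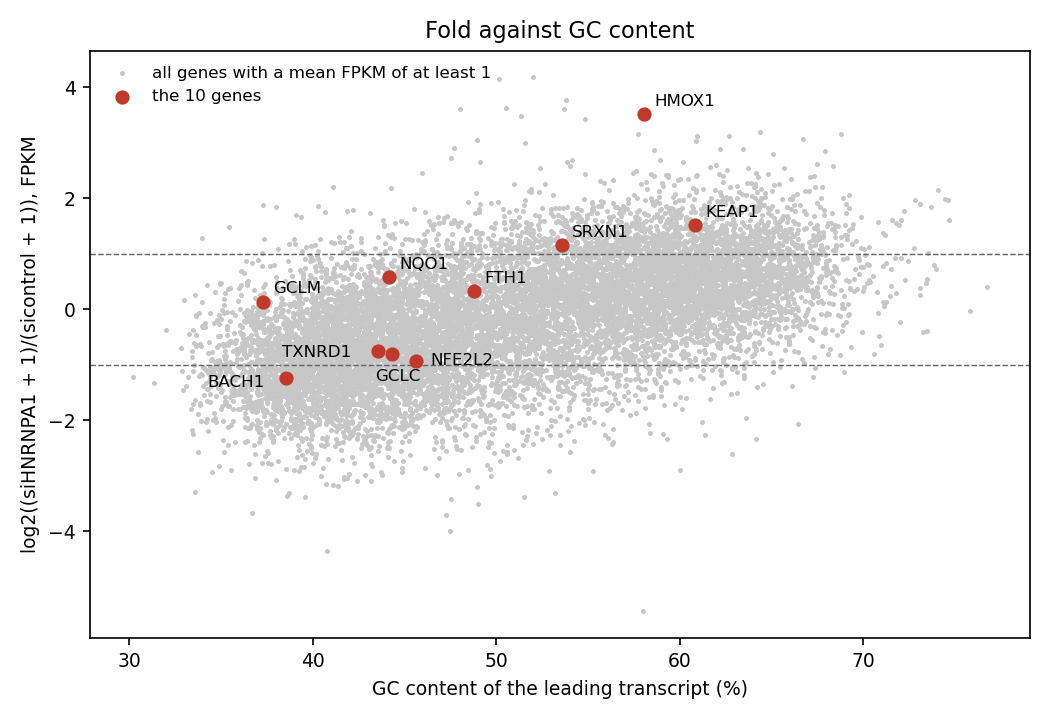
Log2 fold of every gene kept (gray) and of the 10 genes (red) against the GC content of the gene's leading transcript in percent. Dashed lines mark 2-fold. HMOX1 stands far above genes of its GC content, while KEAP1, SRXN1, BACH1, NFE2L2, GCLC and TXNRD1 lie within the gray cloud.

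Each gene was therefore also set against the 100 genes nearest to it in mean level, GC content and length, and the median fold of those genes was taken off. HMOX1 stood at 2.83 on the log2 scale after this step, since the genes near it had a median of 0.69. GCLM stood at 1.24 and NQO1 at 1.12, because genes like them were lower, with medians of -1.10 and -0.55. These 3 genes were past 2-fold on this scale, against 8.06% of all genes upward, and none of the 10 was past 2-fold downward, against 8.41%.

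KEAP1 stood at 0.96 and SRXN1 at 0.70 on this scale, both within 2-fold. BACH1 stood at -0.03 and NFE2L2 at -0.36, so that the lower level of BACH1 was that of genes like it. TXNRD1 at 0.37, GCLC at 0.11 and FTH1 at -0.44 changed sign. HMOX1 was thus the 1 gene of the set past 2-fold in both views. The part of base composition in the folds was not tested.

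**Figure D4:**
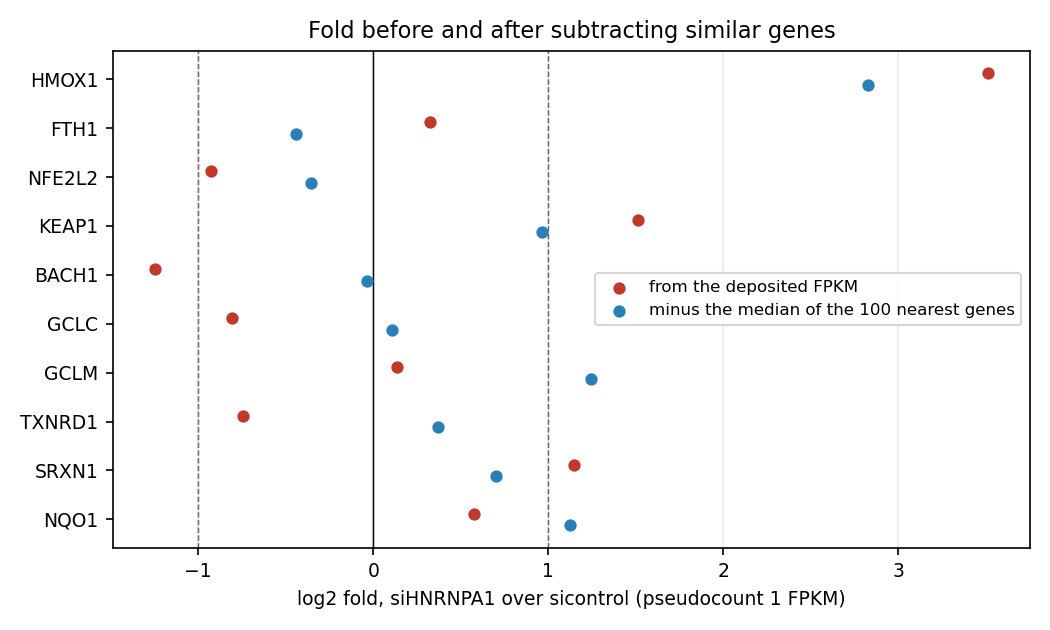
Log2 fold of the 10 genes from the deposited FPKM (red) and after subtraction of the median fold of the 100 nearest genes (blue). Dashed lines mark 2-fold. HMOX1 stays far to the right at 3.51 and 2.83, GCLM and NQO1 move past the right line, and KEAP1, SRXN1 and BACH1 move inside the lines.

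Other genes of the pathway were taken from 7 lists by role. Of 98 genes outside the set that passed the minimum, 19 (19.4%) were at least 2-fold higher and 14 (14.3%) at least 2-fold lower, against 12.4% and 21.9% of all genes. Their median log2 fold was 0.28. After subtraction of the nearest genes, 7 of the 98 were past 2-fold upward and 4 downward, against 8.06% and 8.41% of all genes. These shares describe the lists, and nothing particular to them is claimed.

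Among 14 regulators of NRF2 and BACH1 measured beside NFE2L2, KEAP1 and BACH1, 4 were at least 2-fold higher and 2 lower. SQSTM1, the autophagy receptor p62 that binds KEAP1, had 121 against 36.1 FPKM (log2 fold 1.72). MAFK, a small MAF partner of NRF2 and BACH1, had 8.76 against 2.28 FPKM (1.57). CUL3, the scaffold of the ligase that KEAP1 recruits, had 6.51 against 16.8 FPKM (-1.24), and FBXW11, a subunit of another ligase for NRF2, 7.37 against 18.0 (-1.18). After subtraction of the nearest genes SQSTM1 stood at 1.28 and MAFK at 1.20, while CUL3 stood at 0.19.

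Of 18 genes of heme breakdown and iron handling beside HMOX1 and FTH1, 1 was past 2-fold upward and 6 downward, with a median of -0.30. All genes too were more often past 2-fold downward (21.9%) than upward (12.4%). The lowest were NCOA4, the receptor that delivers ferritin to autophagy (7.44 against 24.3 FPKM, log2 fold -1.58), and FLVCR1, a transporter first described as a heme exporter (3.90 against 13.5, -1.57). CPOX, an enzyme of heme synthesis, had 3.28 against 11.6 FPKM (-1.56), and SLC11A2, an iron importer, 5.06 against 13.7 (-1.28). HMOX2, the constitutive heme oxygenase, had 35.4 against 27.0 FPKM (0.38) and was named after its value had been seen. After subtraction of the nearest genes, NCOA4 stood at -0.41, FLVCR1 at -0.30 and SLC11A2 at -0.12. CPOX at -1.09 was then the 1 gene of the list past 2-fold.

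Of 19 further genes of glutathione synthesis and use, 4 were past 2-fold upward and 1 downward, against 12.4% and 21.9% of all genes. The median log2 fold of the 19 was 0.48, against -0.13 for all genes. After subtraction of the nearest genes it was -0.01. SLC3A2, the heavy chain of the cystine importer, had 351 against 106 FPKM (log2 fold 1.71). GSTM3, a glutathione transferase, had 2.92 against 0.670 FPKM (1.23), GLRX2, a mitochondrial glutaredoxin, 7.15 against 2.81 (1.10), and GSR, glutathione reductase, 14.3 against 30.1 (-1.02). SLC7A11, the light chain of the same importer and an NRF2 and ATF4 target, was named after its values had been seen. It had 3.06 against 2.14 FPKM (0.37) and stood at 1.57 after subtraction of the nearest genes, where SLC3A2 stood at 1.15.

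Of 14 further genes of the thioredoxin system, 4 were past 2-fold upward and 1 downward, against 12.4% and 21.9% of all genes. The median log2 fold of the 14 was 0.62, against -0.13 for all genes. After subtraction of the nearest genes it was 0.21. TXNRD2, the mitochondrial thioredoxin reductase, had 16.1 against 4.47 FPKM (log2 fold 1.64), unlike the lower TXNRD1. SESN2, a stress-induced sestrin, had 25.3 against 10.3 FPKM (1.22), whereas SESN3 had 0.573 against 5.43 (-2.03). PRDX1, a peroxiredoxin that SRXN1 repairs, had 721 against 317 FPKM (1.18). After subtraction of the nearest genes none of the 14 was past 2-fold.

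The 3 remaining lists were mixed. Of all genes, 12.4% were past 2-fold upward and 21.9% downward. Of 13 further genes of quinone and carbonyl detoxification and export, 2 were past 2-fold upward and 3 downward. AKR1B1, aldose reductase, had 133 against 59.1 FPKM (log2 fold 1.15). In that list the exporter ABCC1 had 7.57 against 23.8 FPKM (-1.53), UGDH 6.35 against 17.4 (-1.32) and the exporter ABCC4 0.679 against 2.54 (-1.07). Of 11 genes of NADPH supply, PGLS alone was past 2-fold, at 48.2 against 22.7 FPKM (1.05). TKT, a transketolase, had 532 against 855 FPKM (-0.68) and IDH1, the cytosolic isocitrate dehydrogenase, 89.2 against 139 (-0.64). After subtraction of the nearest genes PGLS stood at 0.02, and TKT at -1.26 was the 1 gene of that list past 2-fold. In the detoxification list ABCC1 at -1.18 was then the 1 gene past 2-fold, and AKR1B1 stood at 0.48.

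Of 9 genes of superoxide and peroxide removal, 3 were at least 2-fold higher and 1 lower, against 12.4% and 21.9% of all genes. MSRB1, a methionine sulfoxide reductase, had 29.9 against 8.01 FPKM (log2 fold 1.78), PARK7 220 against 96.6 (1.18) and CCS, the copper chaperone of superoxide dismutase, 32.0 against 14.8 (1.06). The kinase gene OXSR1 had 6.48 against 16.1 FPKM (-1.19). After subtraction of the nearest genes all 4 were within 2-fold, with MSRB1 at 0.89, PARK7 at 0.48, CCS at 0.35 and OXSR1 at -0.42. SOD2, the mitochondrial superoxide dismutase, had 8.70 against 17.3 FPKM (-0.91), stood at -1.23 on that scale and was named after its values had been seen.

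**Figure D5:**
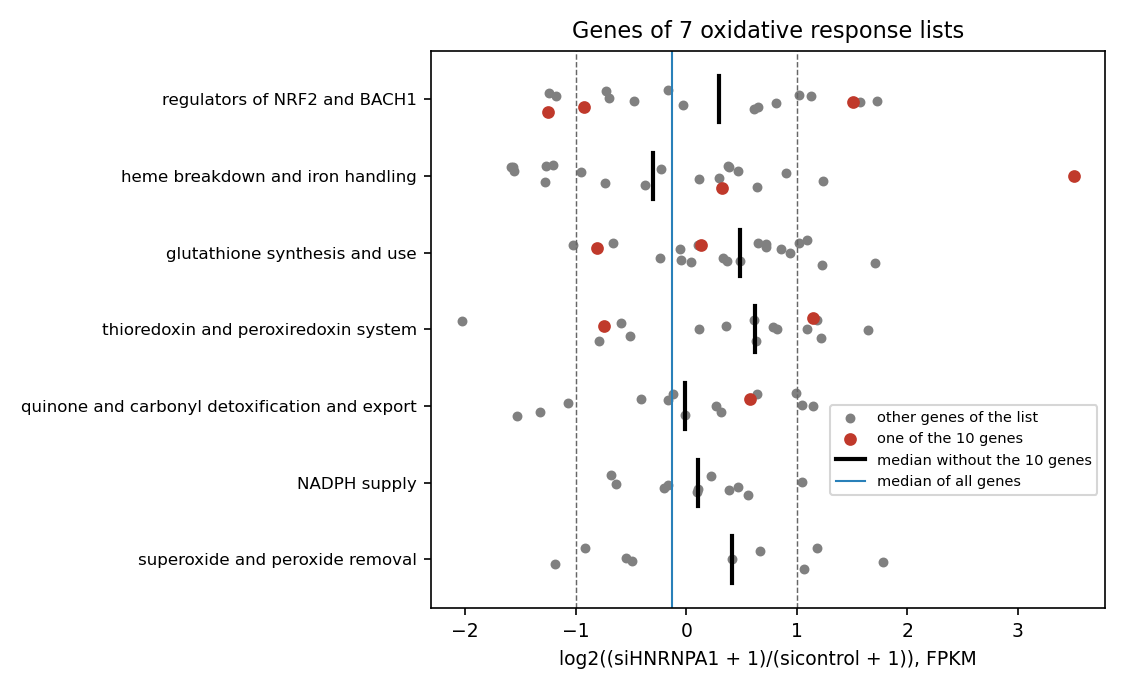
Log2 folds of the genes of the 7 lists, with the 10 genes in red, the other genes in gray and the median of the others as a black bar. The blue line is the median of all genes (-0.13) and dashed lines mark 2-fold. HMOX1 at 3.51 stands apart from the rest of the heme and iron list, whose median is -0.30.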

How the data were processed

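The authors' deposited table gives, per the file headers, a count, a TPM and an FPKM for each transcript. The deposited counts are whole numbers but behave as estimated counts that were rounded up: of the transcripts with a count of 1, 68.1% in each library have an FPKM that implies under 0.5. The deposited FPKM were summed per gene. The deposited TPM served only for the mitochondrial share. The aligner and the quantification program are not stated in the labels or headers. Per the submitters' processing notes the builds were GRCm38 and mm10, which are mouse builds, but the identifiers are human: 95033 of 95139 transcripts are in GENCODE release 29, and 78 of the 82 transcripts of the 10 genes have the same position there (all but 4 of GCLC). Coordinates are on GRCh38. The control library is the column named in its sample's description. The table holds 6 more columns, with counts, TPM and FPKM under names like those of the columns used. Their names match the description of neither sample, so they were not used, also not to estimate a spread.

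The minimum was a mean of 1 FPKM, and 2-fold and 20 share points were the thresholds. Intervals are exact: Poisson for a level, conditional binomial for a ratio and Clopper-Pearson for a share. The text names the 10 genes, HNRNPA1, the 4 genes with the largest absolute fold of each list, and transcripts with 10% of a gene's FPKM or a difference of 10 points. A gene that this rule takes is not reported here. The members and lists were chosen with earlier results of these data known. The alternatives were other scalings, pseudocounts, filters and counts, and subtraction of the 100 nearest genes. The calculations used Python 3.11.15 with pandas 2.3.3, scipy 1.17.1 and scikit-learn 1.9.0 and were tested on simulated data.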

Additional observations from a re-analysis of the deposited data

How the results depend on the processing

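The number of the 10 genes at least 2-fold lower, 1 as reported, was 3 with FPKM rescaled to sum to 1000000 (NFE2L2 and GCLC joined BACH1), 2 with a pseudocount of 0.1 FPKM, 0 with a pseudocount of 5 FPKM and 0 after subtraction of the 100 nearest genes. Over all 11921 genes kept, 2609 were lower as reported, 3332 when rescaled, 3217 with a pseudocount of 0.1 FPKM and 947 with 5 FPKM. After the subtraction 1002 of 11916 were lower. The HMOX1 log2 fold, 3.51 as reported, was 3.06 with a pseudocount of 5 FPKM and 2.83 after that subtraction, and it ranged from 2.83 to 3.64 over all 7 settings. Of the list genes, 19 were higher and 14 lower as reported, against 10 and 5 with a pseudocount of 5 FPKM and 7 and 4 after the subtraction. Over all genes kept, 1480 were higher and 2609 lower as reported, against 841 and 947 with that pseudocount and 961 and 1002 after the subtraction. The cause of these differences was not tested.

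GCLC, TXNRD1 and FTH1 changed sign under the subtraction and under no other setting. KEAP1 was past 2-fold in 6 of 7 settings, SRXN1 in 5 and BACH1 in 5. Rescaling to a sum of 1000000 moved the median of all genes from -0.13 to -0.28. With it 27.4% of the genes past 2-fold were higher, against 36.2% as deposited, 47.0% with a pseudocount of 5 FPKM and 49.0% after the subtraction. With shares of counts in place of FPKM, 3 genes differed by 20 points (NFE2L2, NQO1 and TXNRD1), against 36.3% of all such genes. With a minimum of 1 FPKM 6 of 9 did, against 45.3% of all such genes. No paired analysis was possible because each group has 1 library, and for the same reason no library could be left out. BACH1 and GCLM, with 200 to 717 counts, are the genes whose depth limits the shares most.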
